A study of Mus musculus with 40 samples.

Results

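The genes described here are 8 genes of Nodal and Lefty signaling: Nodal, Tdgf1, Acvr2b, Lefty1, Lefty2, Fst, Smad7 and Foxh1. They were chosen by name, and every gene probe whose current or older symbol is one of these names was taken. These are 11 distinct 60-base probe sequences among 42006 gene probes on the arrays of the first day (the early arrays) and among 41006 gene probes in the Nanog experiment. On the arrays of the later days (the late arrays) they are 8 of 21052 gene probes, which stand for 7 of the 8 genes, and a Lefty2 probe was not found there.

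The study asked which genes respond when the transcription factor Pou5f1 (Oct4) is shut off in mouse embryonic stem (ES) cells, and which respond to more Nanog. In ZHBTc4 ES cells (strain 129/Ola), the only working Pou5f1 copy is a transgene that tetracycline (Tet) represses. There are 2 early arrays for each time on Tet (3, 6, 12 or 24 hr) and for 0 hr, and 3 late arrays for 0 hr and for each of 5 later times, from 24 to 120 hr in steps of 24 hr. All ZHBTc4 cells, the 0 hr controls included, carry this transgene and grew on gelatin in medium with LIF (leukemia inhibitory factor), which sustains ES cells. The Nanog experiment has 4 male lines: 1 clone with an integrated Nanog transgene and ES 129.3 (passage 12), both of strain 129SvEv-Tac, and 1 clone with an episomal Nanog transgene and MG1.19 (passage 5), both of strain 129Sv. ES 129.3 and MG1.19 carry no Nanog transgene and are called the parental lines. Each line was grown for 3 days with LIF, without LIF, or with LIF and 1 uM RA (retinoic acid), with 1 array per line and medium (12 arrays). Each transgene is represented by 1 clone, and the sources differ on which line is the parent of which clone, so the pairs used here were matched by strain.

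Nodal is a secreted ligand of the TGF-beta family that patterns the early embryo. It signals through type I and type II activin receptors together with the co-receptor Tdgf1 (Cripto), and phosphorylated Smad2 and Smad3 then act on genes with partners such as Foxh1. Lefty1 and Lefty2 are secreted antagonists and at the same time targets of the pathway, so that their transcripts are widely read as an output of Nodal signaling. ES cells make Nodal, Tdgf1 and the Lefty proteins themselves.

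The probe sequences matter for what follows, because Lefty1 and Lefty2 are close paralogs and because the 3 Tdgf1 probes did not give the same size of change. They are shown as deposited with the arrays, whole for the Nodal probe and Tdgf1 probe 1, and as their last 30 bases for the others. Capitals mark AATAAA, the hexamer of a polyadenylation signal.
Lefty1: ctagatgtgAATAAAatatgctttgttttg
Lefty2: cctggcagctttgcccatgtcatttattgt
Nodal: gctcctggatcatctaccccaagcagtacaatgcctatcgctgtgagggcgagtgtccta
Tdgf1 probe 1: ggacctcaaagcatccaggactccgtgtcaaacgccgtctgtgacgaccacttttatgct
Tdgf1 probe 2: attgttcatgaatatgcacagtaaaaatgg
Tdgf1 probe 3: aggcctttcctctgcacggtccctcctctt
The longest run of bases that the Lefty1 and Lefty2 probes share is 7, and 22 of their 60 positions are identical. Of the 3 forward reading frames, 2 are free of stop codons in Tdgf1 probe 1 and 0 in Tdgf1 probe 2, whose GC content is 53.3% and 30.0%. Tdgf1 probes 1 and 2 are on all 3 designs, and probe 3 is on the early and Nanog designs. The mouse genome also holds Tdgf1 pseudogenes, and whether their transcripts add to these signals was not tested. Fst has 2 probes as well, of which the late design holds 1.

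Each array carried 2 RNAs, that of the cells in Cy3 and, in Cy5, the Universal Mouse Reference RNA (a pool from cell lines). A value here is log2(Cy3/Cy5), the level in the sample relative to that reference. Median Cy3 signals of gene probes were 595 to 672 on the early, 596 to 776 on the late and 531 to 662 on the Nanog arrays, over local backgrounds of 365 to 390. A floor was set for each array at the 95th percentile of its negative control spots. On the late arrays 16.3% to 30.2% of gene probes lay under this floor, against at most 6.78% on the other arrays, and this limits the size of a fall. A gene was called changed where limma gave an adjusted p of at most 0.05 and the change was at least 1.5-fold. A gene with several probes is counted by its brightest, the one of highest mean log2 intensity over both dyes and all arrays of the experiment. No label says that replicate arrays came from separate cultures, so the p-values measure the spread between these arrays, which may be technical, and the number of arrays limits their precision. Pou5f1 itself stood at 3.97 on both early arrays at 0 hr and at 3.46 and 3.38 at 24 hr. By its brightest probe it was not called lower at any time on the early arrays. The paper reports a marked loss of Pou5f1 mRNA within hours of adding Tet, and the early ratios alone do not establish this loss. On the late arrays Pou5f1 stood at 1.91 to 2.40 at 0 hr and between -0.30 and 0.12 on every array from 24 hr on. It was called lower there at each time from 24 hr on. The ES cells at 0 hr had high values of their markers: the mean log2 ratio over Pou5f1, Sox2, Nanog, Zfp42 and Utf1 was 3.75 to 3.92 on the early and 3.01 to 3.99 on the late arrays.

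In the first day on Tet, Lefty1 was higher at 6 hr and lower at 24 hr, Tdgf1 fell, and the other 6 genes did not pass the call at any time. Thus 2 of 8 genes were called at some time (9.42% of all genes tested), both lower at 24 hr (1.92% of all genes tested were lower then). At 0 hr the 2 Lefty1 arrays read 2.73 and 2.77 on the log2 scale. The readings were 3.06 and 3.28 by 3 hr, 3.50 and 3.42 by 6 hr, 2.77 and 2.78 by 12 hr, then 0.91 and 1.45 by 24 hr. Both arrays at 3 and at 6 hr lay above those at 0 hr, as for 19.2% of all genes at 3 hr and 18.6% at 6 hr. Both at 12 hr lay at the level of 0 hr, and both at 24 hr lay below all others (37.6% of all genes lay below 0 hr without overlap at 24 hr). The difference at 6 hr was 0.71 (SE 0.16, adjusted p 0.0484), a 1.64-fold change at a time when 2.07% of all genes were called higher. At 24 hr Lefty1 had fallen by 1.57 (SE 0.16, adjusted p 0.000384), or 2.97-fold. Without normalization, the Cy3 signal was 1686 and 1745 at 0 hr, then 2020 and 1879 by 6 hr, then 834 and 818 by 24 hr. With the Cy3 signal alone, normalized between arrays, the change at 6 hr was 0.35 (SE 0.08, adjusted p 0.179) and from the authors' normalized values it was 0.56 (adjusted p 0.296), so the call of a rise was lost under both while its direction was kept. The fall at 24 hr was -1.66 with Cy3 alone (SE 0.08, adjusted p 2.27e-05). A stricter variance rule, the larger of a probe's own variance and that of probes of similar intensity, left 0 of 8 genes called on the early arrays. The methods of the paper describe a rule of this kind. The share of all genes called under it was not computed, so this count is not set against all genes.

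Tdgf1, the co-receptor that Nodal needs, fell by 24 hr with each of its probes. Its brightest probe, probe 2, read 5.20 and 5.41 at 0 hr, then 5.13 and 4.94 by 12 hr, then 4.42 and 4.37 by 24 hr, a fall by 0.91 (SE 0.10, adjusted p 0.000788). Probe 1 read 3.15 and 3.00 at 0 hr, then 2.24 and 2.12 by 12 hr, with a mean of 1.31 ± 0.16 (SD, n = 2) by 24 hr. It had fallen by 0.89 at 12 hr (SE 0.11, adjusted p 0.00967, when 0.382% of all genes were called lower) and by 1.77 at 24 hr (SE 0.11, adjusted p 4.09e-05). Probe 3 changed by -0.74 at 12 hr (adjusted p 0.126) and fell by 1.34 at 24 hr (SE 0.20, adjusted p 0.00328). At 24 hr no array of any probe overlapped those at 0 hr (37.6% of all genes lay below 0 hr without overlap), but the log2 changes ran from -1.77 to -0.91 between probes. The Cy3 signal of probe 2 went from 28437 and 28323 at the start to 3538 and 3832 by 24 hr, while its Cy5 signal, which comes from the same reference RNA on every array, went from 868 and 1030 to 453 and 466. With the Cy3 signal alone, normalized between arrays, the change of probe 2 at 24 hr was -3.22 (SE 0.09, adjusted p 2.09e-06), against -2.29 for probe 1 and -1.40 for probe 3. The size of the Tdgf1 fall therefore depended on the probe and on the use of Cy5, and its direction did not.

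**Figure D1:**
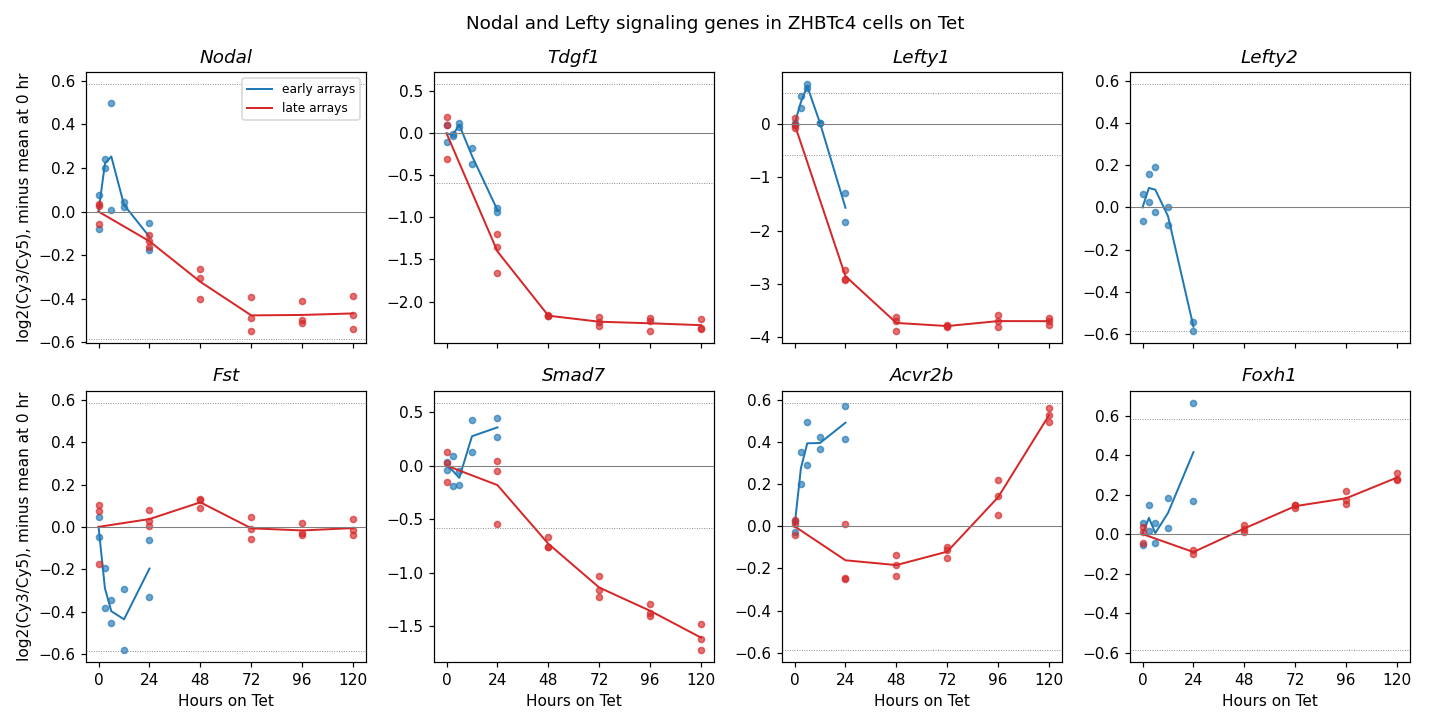
Level of each of the 8 genes in ZHBTc4 cells by hours on Tet (x axis), as log2(Cy3/Cy5) minus the mean at 0 hr (y axis), with 1 point per array and lines through the means, for the brightest probe of each gene on the early (blue) and late (red) arrays; dotted lines mark 1.5-fold. The early Lefty1 arrays stood above their 0 hr level at 6 hr and below it at 24 hr, Tdgf1 declined in both experiments (by different probes), and Smad7 declined on the late arrays.

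Lefty2, the paralog of Lefty1, read 0.08 and 0.21 at 0 hr and -0.40 and -0.44 at 24 hr, a change of -0.57 (SE 0.10, adjusted p 0.00737) that is 1.48-fold and so short of the call. It was called from the authors' values (-0.66, adjusted p 0.0169) and was -0.23 with the Cy3 signal alone (adjusted p 0.317). Its values at 3 and 6 hr were 0.12 to 0.33 and overlapped those at 0 hr. The ligand Nodal read 1.53 and 1.37 at 0 hr and 1.27 and 1.40 at 24 hr, which overlap, with a change of -0.12 (95% interval -0.44 to 0.21), and of -0.56 (SE 0.08, adjusted p 0.00399) or 1.48-fold with the Cy3 signal alone. Acvr2b, a type II receptor for activin and Nodal, was at 1.39 and 1.44 at 0 hr and at 1.83 and 1.98 at 24 hr, a change of 0.49 (SE 0.10, adjusted p 0.0134) or 1.41-fold, and of -0.01 with the Cy3 signal alone. Smad7, an intracellular inhibitor that binds the type I receptors, had a difference of 0.36 at 24 hr (95% interval 0.06 to 0.65), which with the Cy3 signal alone was 0.71 and called (adjusted p 0.00159). Foxh1, the transcription factor that takes Smad2 to its targets, had one of 0.41 (0.08 to 0.75), which was 0.0025 with the Cy3 signal alone (adjusted p 0.990) and 0.12 from the authors' values. Without replicate 1 at 24 hr, Lefty2 (-0.59, adjusted p 0.0164) and Foxh1 (0.66, adjusted p 0.00828) passed too, which makes 4 of 8 genes, when 12.7% of all genes were called at some time. Fst encodes follistatin, which binds and blocks activins, and its 2 probes changed by -0.20 and 0.42 at 24 hr, with intervals that include 0. Trophoblast markers moved over the same hours: their mean log2 ratio over 8 genes was 0.75 to 0.81 at 0 hr and 1.53 to 1.54 at 24 hr, and 4 of the 8 were called higher. In RNA of a whole culture, fewer cells of a type and less RNA per cell cannot be told apart.

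Over 5 days Lefty1, Tdgf1 and Smad7 fell and did not come back, and none of the other 4 genes measured on the late arrays was called. The 3 called genes compare with 24.8% of all genes called at some time and 10.4% called lower at some time. The share called lower was 3.62% of genes for 24 hr, 4.8% for 48 hr, 6.39% for 72 hr and 8.53% for 120 hr. Lefty1 read 3.05, 2.99 and 3.18 at 0 hr, 0.17, 0.34 and 0.14 by 24 hr, -0.55, -0.81 and -0.62 by 48 hr, then -0.69, -0.63 and -0.57 by 120 hr. Every array from 24 hr on lay below every array at 0 hr (18.3% of all genes did so at 24 hr), and every array from 48 hr on lay below those at 24 hr. The log2 ratio had fallen by 2.86 at 24 hr (SE 0.08, adjusted p 1.40e-13) and by 3.70 at 120 hr (SE 0.08, adjusted p 3.99e-16). Its Cy3 signal exceeded the floor on 3 of 3 arrays at 0 and 24 hr, on 0 of 3 at 48 and 72 hr, and on 1 of 3 at 96 and at 120 hr. The fall at 72 hr is therefore a bound: the Cy3 channel after loess and Aquantile normalization was at least 17.4-fold lower, taking the negative controls as the floor and with any bias of the dye included.

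The late design counts Tdgf1 by probe 1, which read 2.51, 2.01 and 2.42 at 0 hr, 0.96, 1.11 and 0.65 at 24 hr, and -0.01 to 0.11 at 120 hr. It had fallen by 1.40 at 24 hr (SE 0.11, adjusted p 6.49e-08) and by 2.17 at 48 hr, and stayed within -2.24 to -2.28 from 72 to 120 hr. Probe 2 read 4.73, 4.87 and 4.95 at 0 hr and 3.90, 3.89 and 3.74 at 24 hr. It had fallen by 1.01 at 24 hr, by 2.99 at 48 hr and by 4.32 at 72 hr (SE 0.08, adjusted p 4.47e-16). Its Cy3 signal of 6015 to 13023 at 0 hr came down to 642 to 721 at 48 hr, and from 72 hr on it was below the floor on all 9 arrays. Bounded by the negative controls, its Cy3 level at 120 hr was at least 66.7-fold lower than at 0 hr. With the Cy3 signal alone, normalized between arrays, the change of probe 2 was -2.43 at 24 hr and -6.50 at 120 hr, and that of probe 1 was -1.55 and -2.40.

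Smad7, called from 48 hr on, read 2.79, 2.51 and 2.69 at 0 hr, 2.71, 2.62 and 2.12 by 24 hr, 1.90, 1.90 and 2.00 by 48 hr, then 0.95, 1.18 and 1.05 by 120 hr. The arrays at 24 hr overlapped those at 0 hr, and all later arrays lay below both. The change was -0.18 at 24 hr (95% interval -0.43 to 0.07), -0.73 at 48 hr (SE 0.12, adjusted p 0.000112) and -1.61 at 120 hr (SE 0.12, adjusted p 4.22e-09). With the Cy3 signal alone it was already called at 24 hr (-0.63, adjusted p 0.0220). By linear interpolation it crossed 1.5-fold at 41.6 hr, against 4.91 hr for Lefty1 and 10.0 hr for Tdgf1 probe 1, where the times before 24 hr rest on the line drawn between 0 and 24 hr. On the early arrays Lefty1 crossed upward at 4.73 hr, and Tdgf1 crossed downward at 9.52, 17.9 and 10.8 hr by probes 1, 2 and 3. The early change of Lefty1 was 0.02 at 12 hr and -1.57 at 24 hr, so a downward crossing at 4.91 hr was not seen there.

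**Figure D2:**
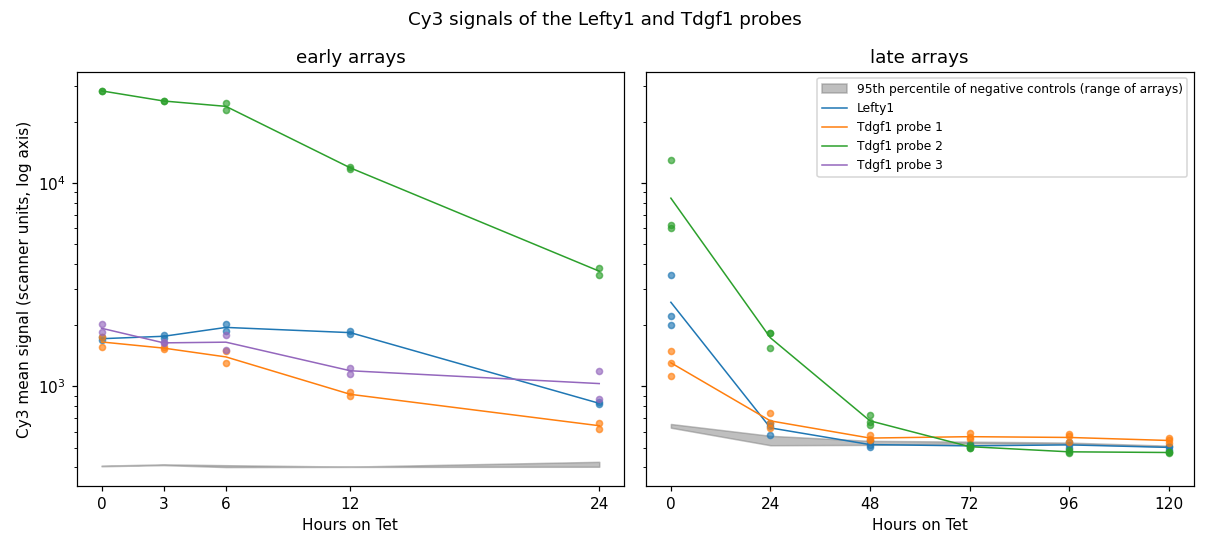
Cy3 signal in scanner units (log axis) of the Lefty1 and Tdgf1 probes by hours on Tet on the early arrays (left) and the late arrays (right), with 1 point per array, lines through the means, and a gray band for the range of the floor (95th percentile of negative control spots) over the arrays of each time. On the late arrays Lefty1 and Tdgf1 probe 2 came down into or below the band, and Tdgf1 probe 1 came close to it while above the floor of its own array each time. No probe reached it on the early arrays.

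Nodal, the ligand, read 0.62, 0.63 and 0.54 at 0 hr, 0.49, 0.43 and 0.46 by 24 hr, then 0.21, 0.12 and 0.05 by 120 hr. All arrays at each later time lay below those at 0 hr, as for 25.4% of all genes at 120 hr. The change at 120 hr was -0.47 (SE 0.06, adjusted p 2.40e-06), 1.38-fold and short of the call. With the Cy3 signal alone it was -1.34 (adjusted p 4.11e-08) and passed the call, so the size of the Nodal change depended on the use of Cy5. Its Cy5 signal, from the reference RNA, was 837 to 1011 at 0 hr and 589 to 698 at 120 hr. Acvr2b read 1.21, 1.29 and 1.27 at 0 hr, 1.01 to 1.26 at 24 hr and 1.82, 1.75 and 1.78 at 120 hr, and its change at 120 hr was 0.53 (SE 0.06, adjusted p 2.41e-06) or 1.44-fold. From the authors' values it was 0.70 and called (adjusted p 7.94e-08), and with the Cy3 signal alone it was 0.40 and not called (adjusted p 0.0178). Foxh1, measured on 17 arrays because 1 spot was marked as an outlier by the scanner software, changed by 0.29 at 120 hr (SE 0.04, adjusted p 2.48e-05), or 1.22-fold. Fst stayed between -0.44 and -0.13 on all 18 arrays, and its change at 120 hr was -0.01 (95% interval -0.14 to 0.13). Among markers over the same days, 6 of 6 ES cell genes, Tdgf1 among them, and 0 of 7 trophoblast genes were called lower at 120 hr, and 5 of the 7 trophoblast genes were called higher. Also called higher at 120 hr were 1 of 5 primitive endoderm genes (Dab2) and 1 of 5 feeder fibroblast genes (Postn), against 12.1% of all genes. The mean log2 ratio of the trophoblast list went from between -0.41 and 0.15 at 0 hr to between 2.16 and 2.42 at 120 hr, and what part the change of cell type has in these falls was not tested.

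Over the 18 late arrays, the log2 ratios of Lefty1 and Tdgf1 correlated with r of 0.979, those of Lefty1 and Nodal with 0.832, and those of Lefty1 and Smad7 with 0.744. These are descriptions over arrays that share their time points. Among 10375 genes with a symbol, those most like Lefty1 were Tcl1, Trh and Jam2, with r of 0.995, 0.995 and 0.994. Tcl1 is a cofactor of the kinase Akt that ES cells express, Trh encodes thyrotropin-releasing hormone, and Jam2 a junctional adhesion molecule. Most like Tdgf1 were Lrrc2, Dusp27 and Ndrg2 with r of 0.989 to 0.992, and most like Smad7 were Piga, Mcm5 and Fkbp5 with r of 0.988 to 0.989. Mcm5 is a subunit of the replicative helicase.

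The 24 hr point was measured in both experiments, so the change from 0 to 24 hr could be compared on probes of the same sequence. Lefty1 fell by 1.29 more on the late than on the early arrays (SE 0.16, adjusted p 4.41e-06), and Acvr2b changed by -0.16 on the late and by 0.49 on the early arrays, a difference of -0.65 (SE 0.11, adjusted p 0.000175). These 2 of 7 genes passed the call, as did 15.2% of all genes, and both were lower on the late arrays like 10.3% of all genes. For Foxh1 the difference was -0.51 (adjusted p 0.00809) and for Smad7 -0.54 (adjusted p 0.0329), both under 1.5-fold. For Tdgf1 it was 0.36 by probe 1 (95% interval 0.01 to 0.72) and -0.09 by probe 2 (-0.37 to 0.18), and for Nodal -0.02 (-0.30 to 0.26). With the Cy3 signal alone the difference was -1.53 for Lefty1 (adjusted p 9.02e-08), and it was not called for Acvr2b (-0.16, adjusted p 0.575) or Foxh1 (-0.11, adjusted p 0.728). By the same signal Smad7 (-1.34, adjusted p 0.00108), Tdgf1 probe 1 (0.74, adjusted p 0.000765) and Tdgf1 probe 2 (0.79, adjusted p 0.000528) were called. From the authors' values the difference was called for Lefty1 (-0.90, adjusted p 0.00544) and Tdgf1 probe 1 (0.73, adjusted p 0.0127). It was not called for Acvr2b (-0.20, adjusted p 0.436), Foxh1 (-0.18, adjusted p 0.335) or Smad7 (-0.46, adjusted p 0.0764). Experiment and array design cannot be told apart here.

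**Figure D3:**
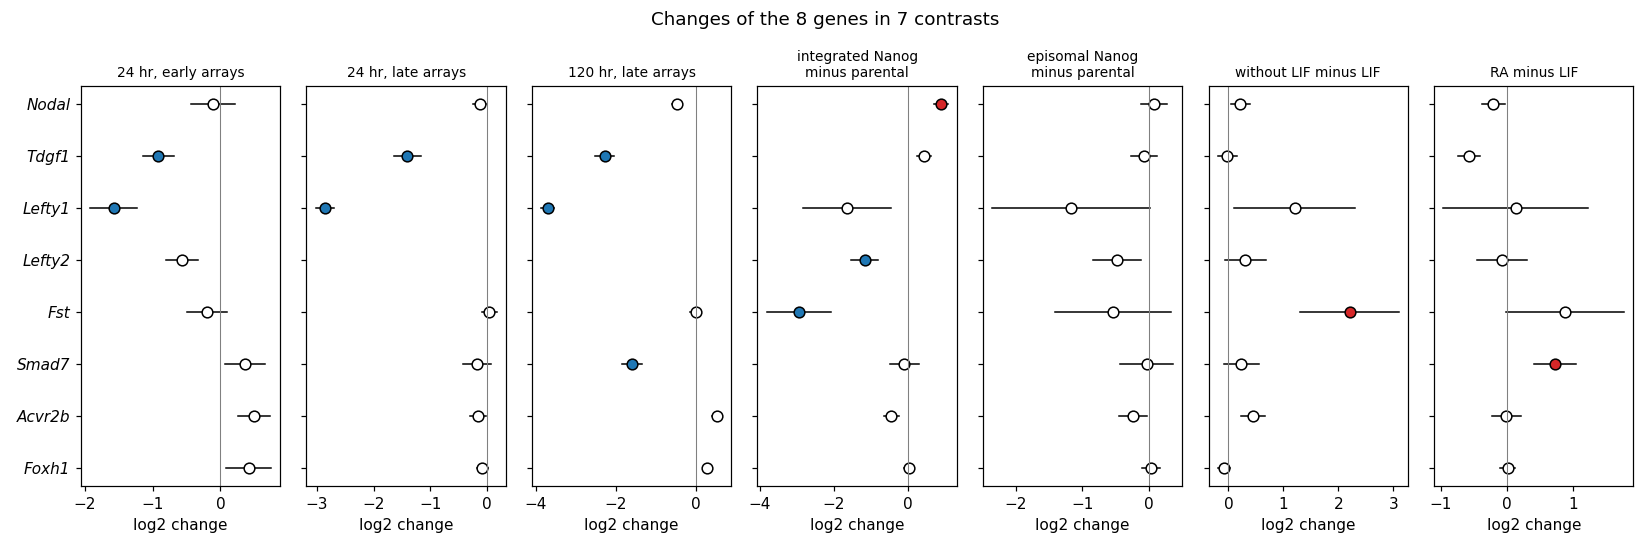
Change of each gene by its brightest probe (points, log2 scale, with 95% intervals) in 7 contrasts named above the panels; filled points passed the call (blue lower, red higher), and the x axes differ between panels. Lefty2 was not measured on the late arrays, and 0 genes were called in the episomal panel.

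In the Nanog experiment each transgenic array was set against the parental array of the same strain and medium, which gives 6 pairs from 2 clones. Nanog itself was higher than in ES 129.3 in the integrated clone by 0.75 (SE 0.18, adjusted p 0.0498), whereas in the clone labelled episomal it read 1.28, 1.47 and 0.66 with LIF, without LIF and with RA, below 1.91, 1.93 and 1.26 in MG1.19. The methods of the study report raised Nanog in both clones by real-time PCR, more so in the episomal one, and those data are not analysed here. Whether the array probe lies within the transgene is not given in the sources used here, so it does not settle the label of the episomal clone. Over both clones 0 of 8 genes were called (0.00531% of all genes), with an unadjusted p under 0.05 by limma for 5 of the 8 (19.5% of all genes). The test treated the 6 pairs as independent, although pairs of 1 clone share that clone. Its p-values mix the spread between media with that between clones and do not rest on 6 independent clones. Lefty1, Lefty2 and Acvr2b were lower in 6 of 6 pairs, as were 7.55% of all genes. Lefty1 read 5.60, 5.15 and 5.16 in ES 129.3 with LIF, without LIF and with RA, against 2.96, 4.37 and 3.68 in the integrated clone. In the same media it read 3.94, 4.71 and 3.08 in MG1.19 and 1.34, 4.43 and 2.45 in the clone labelled episomal. The pair differences ran from -2.64 to -0.28, with a mean of -1.40 (SE 0.35, adjusted p 0.106). The difference with LIF was -2.64 for the integrated and -2.60 for the episomal pair, and those without LIF were -0.78 and -0.28.

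Taken alone, the integrated clone had lower Lefty2 and Fst and higher Nodal than ES 129.3, where 4.53% of all genes were called (2.74% lower and 1.79% higher). Each clone was compared with its parental line over 3 media, so the p-values here measure the spread between media of 1 clone and not between clones. Lefty2 read 2.05, 1.75 and 1.97 in ES 129.3 with LIF, without LIF and with RA, and 0.50, 1.04 and 0.74 in the clone, a difference of -1.16 (SE 0.15, adjusted p 0.00729). Fst read 1.56, 3.03 and 1.52 in ES 129.3 and -1.60, 0.21 and -1.32 in the clone, a difference of -2.94 (SE 0.37, adjusted p 0.00664), and its other probe gave -1.43 (SE 0.17, adjusted p 0.00586). Nodal read 0.67, 1.16 and 0.54 in ES 129.3 and 1.74, 1.90 and 1.43 in the clone, a difference of 0.90 (SE 0.08, adjusted p 0.00299) or 1.86-fold. In the pairs of the clone labelled episomal, Nodal differed by -0.01 to 0.22, and clone, strain and transgene cannot be told apart. The difference in the integrated clone was higher by 0.81 (SE 0.11, adjusted p 0.0391), a call that 0.823% of all genes passed. It was lost with Cy3 alone (0.72, adjusted p 0.170) and with the authors' values (0.92, adjusted p 0.0591). Lefty1 differed by -1.63 in the integrated clone (adjusted p 0.106) and by -2.90 with Cy3 alone (adjusted p 0.0127), which called it and Acvr2b (-0.59, adjusted p 0.0134). Markers of feeder fibroblasts differed between the same lines: their mean log2 ratio over 5 genes was -1.86 to -0.81 in ES 129.3 and -2.65 to -2.39 in the integrated clone, and Lox and Postn, 2 of the 5, were called lower. Their part in the Fst, Lefty2 and Nodal differences was not tested. The clone labelled episomal had 0 of 8 genes called, as had 0% of all genes at this threshold, with a Lefty1 difference of -1.17 (95% interval -2.36 to 0.03) and an Fst difference of -0.54 (-1.42 to 0.33).

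**Figure D4:**
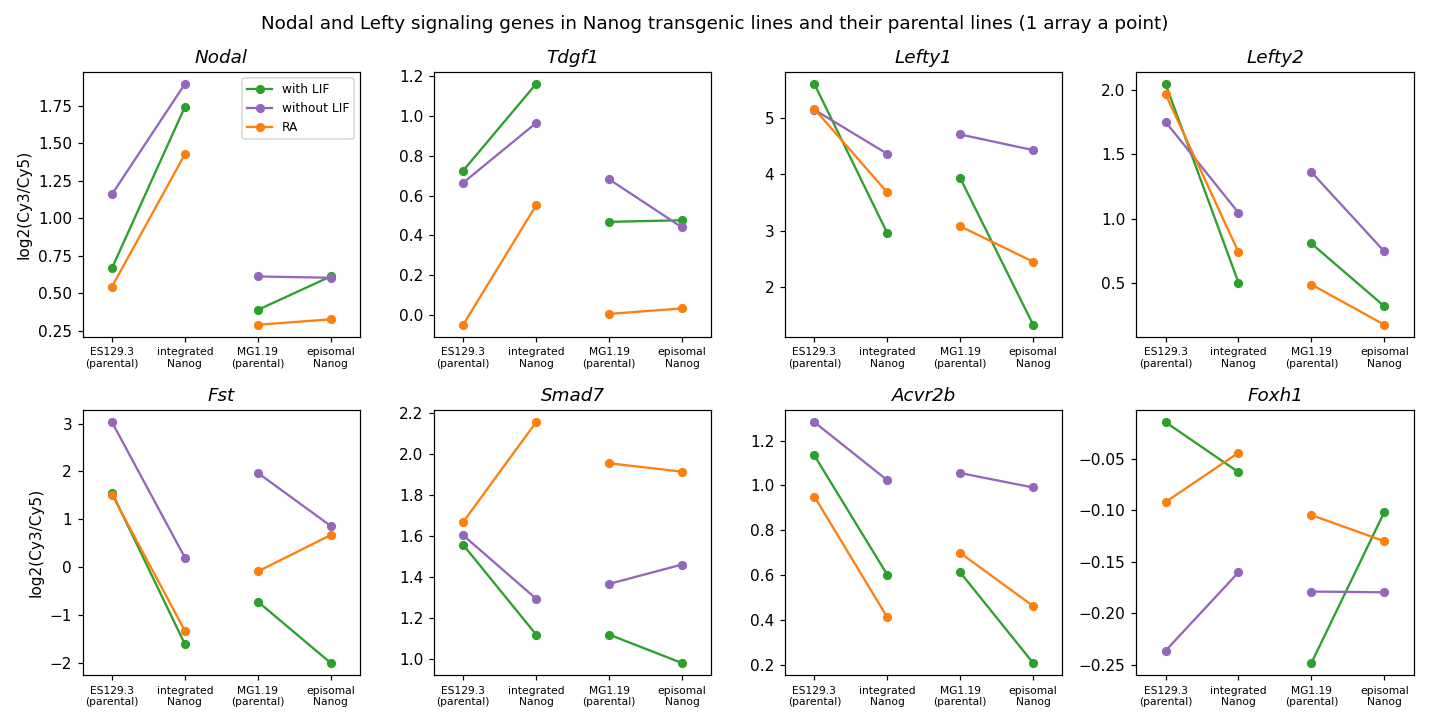
log2(Cy3/Cy5) of each gene by its brightest probe in the 4 lines (x axis) grown with LIF (green), without LIF (purple) or with RA (orange), with 1 array per point and lines joining each parental line to the transgenic clone of its strain. Lefty1 and Lefty2 were lower in the transgenic line of every pair, and Nodal was higher in the integrated clone in all 3 media.

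The media comparisons use the same 12 arrays, with each line compared with itself. The media themselves were recognizable: Socs3, a target of LIF signaling, fell by 2.62 without LIF (adjusted p 0.000620), and Cyp26a1, which degrades RA, rose by 2.65 with RA (adjusted p 0.000131). Without LIF, Fst alone of the 8 genes was called (1.02% of all genes were called and 0.499% were higher). Fst went from 1.56 to 3.03 in ES 129.3, from -0.71 to 1.97 in MG1.19, from -1.99 to 0.86 in the clone labelled episomal and from -1.60 to 0.21 in the integrated clone. It was higher without LIF in 4 of 4 lines (12.9% of all genes were), by 2.20 (SE 0.39, adjusted p 0.0358) or 4.60-fold. The other Fst probe gave a rise of 1.07 (SE 0.18, adjusted p 0.0329). The call was lost without the integrated clone (2.34, adjusted p 0.133), without MG1.19 (2.04, adjusted p 0.298) or without ES 129.3 (2.45, adjusted p 0.0578), and kept without the clone labelled episomal (1.99, adjusted p 0.0270). Lefty1 changed without LIF by -0.46 in ES 129.3, 0.77 in MG1.19, 1.41 in the integrated and 3.09 in the clone labelled episomal, a mean of 1.20 (95% interval 0.10 to 2.30, adjusted p 0.289). Acvr2b was higher in 4 of 4 lines by 0.15 to 0.78, a mean of 0.45 (SE 0.09, adjusted p 0.0553).

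With RA, Smad7 rose, and Tdgf1 fell by 2 of its 3 probes. Smad7 went from 1.56 to 1.67 in ES 129.3, from 1.12 to 1.95 in MG1.19, from 0.98 to 1.91 in the clone labelled episomal and from 1.12 to 2.15 in the integrated clone. The change was 0.73 (SE 0.14, adjusted p 0.0102), higher in 4 of 4 lines like 17.6% of all genes, and Smad7 was the 1 gene of 8 called by its brightest probe (5.86% of all genes, 4.65% higher). The call was lost without the integrated clone (0.63, adjusted p 0.0515) and without MG1.19 (0.69, adjusted p 0.0948). Tdgf1 by probe 3, the brightest over both dyes in this design, changed by -0.57 (SE 0.08, adjusted p 0.00183), which is 1.49-fold, while probe 1 fell by 1.22 (SE 0.17, adjusted p 0.00251) and probe 2 by 1.04 (SE 0.17, adjusted p 0.00492). Probe 2 had the higher Cy3 signal (3198 to 31392, against 1549 to 3187 for probe 3), and its mean log2 intensity over both dyes was 10.5 against 10.6, so that by Cy3 signal Tdgf1 would be called as well, 2 of 8 genes. The change of probe 2 was -2.26 with Cy3 alone (adjusted p 0.00202) and -0.44 from the authors' values (adjusted p 0.123), where its call was lost. Each probe was lower with RA in 4 of 4 lines, as were 13.3% of all genes. Probe 2 read 4.80 to 4.82 with RA in ES 129.3, MG1.19 and the clone labelled episomal, and 5.95 in the integrated clone. Lefty1 changed by -0.44 and -0.85 in the parental lines and by 0.72 and 1.12 in the transgenic ones, a mean of 0.14 (95% interval -0.96 to 1.23). Pou5f1 fell by 1.38 with RA (SE 0.37, adjusted p 0.0419). Called higher were 5 of 8 trophoblast, 4 of 5 primitive endoderm and 2 of 5 feeder fibroblast markers, whose part in these changes was not tested.

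Other genes of the Nodal, activin and TGF-beta pathway were counted in 6 groups by role, 32 genes on the early and Nanog and 31 on the late arrays. At 24 hr on the early arrays 3 fell and 3 rose (1.92% and 6.92% of all genes tested), and their median change was -0.09, against -0.06 over all genes tested. Among 8 ligands, Inhbb, the beta-B subunit of activin B, fell by 1.25 (SE 0.10, adjusted p 0.000144) and Gdf3, a ligand that also uses Tdgf1, fell by 0.74 (SE 0.09, adjusted p 0.00124). Inha, the alpha subunit that turns activins into inhibins, rose by 1.00 (SE 0.17, adjusted p 0.00583). Bmp4, a ligand of the BMP branch, rose at 6 hr by 1.59 (SE 0.34, adjusted p 0.0498). Inha was called higher then too, as were 2.07% of all genes. Furin, a convertase that cleaves the Nodal precursor, rose at 24 hr by 0.83 (adjusted p 0.00282), and Tgif2, a corepressor that binds Smads, fell by 0.74 (adjusted p 0.00245). None of 5 receptors and co-receptors, 5 Smads and partners or 3 target genes (Gsc, Mixl1 and Foxa2) was called at 24 hr on the early arrays. At 24 hr on the late arrays 1 of 31 fell (Inhbb) and 2 rose (Smad3 and Smad6), against 3.62% and 3.95% of all genes. Furin, Tgif2, Inha and Gdf3 were not called there at 24 hr, and Bmp4 was called lower from 48 hr on. By the call, the change to 24 hr was lower on the late than on the early arrays for 5 genes, Furin and Inha among them. It was higher for 3, Tgif2 among them (10.3% and 4.88% of all genes).

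At 120 hr on the late arrays 5 of 31 fell and 8 rose (8.53% and 12.1% of all genes tested), with a median of 0.04 against 0.00 over all genes. Of 8 ligands 3 fell and 1 rose, with Inhbb at -2.24 (SE 0.14, adjusted p 5.49e-10) and Gdf3 at -2.30 (SE 0.06, adjusted p 3.82e-15). The 2 convertases went apart, since Pcsk6 fell by 2.30 (SE 0.12, adjusted p 4.16e-11) while the other rose. Of 8 inhibitors 1 fell and 3 rose, and the one that fell was Tgif1, a corepressor of Smad2 and Smad3, by 1.79 (SE 0.08, adjusted p 5.95e-12). Smad6, an inhibitory Smad of the BMP branch, was higher at 24 hr by 2.38 (SE 0.11, adjusted p 6.86e-11, when 3.95% of all genes were called higher) and was not called at 120 hr. Of 5 Smads and partners 2 rose, among them the signal transducer Smad3 by 1.48 (SE 0.07, adjusted p 4.71e-12), and 0 of 3 targets were called.

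In the Nanog experiment without LIF, 1 of 32 pathway genes fell and 1 rose (0.52% and 0.499% of all genes, medians 0.02 and 0.01 over the list and over all genes). Inhbb fell by 2.01 (SE 0.36, adjusted p 0.0368), and Gdf1, a ligand that pairs with Nodal, rose by 1.31 (SE 0.26, adjusted p 0.0475). With RA 2 fell and 5 rose (1.21% and 4.65% of all genes), with a median of 0.06 against -0.01 over all genes. Inhbb fell by 1.51 (adjusted p 0.0262), while Foxa2, a target in endoderm and node, rose by 1.86 (adjusted p 0.000316), Furin by 1.72 (adjusted p 8.18e-05) and the ligand Tgfb2 by 1.45 (adjusted p 0.00402). Between the integrated clone and ES 129.3, 4 were lower and 0 higher, with a median of -0.12 against 0.00 over all genes. Lower were Inhba, the beta-A subunit of activin A, with a difference of -2.32 (SE 0.08, adjusted p 0.000686), Tgfb2 with -1.60 (adjusted p 0.0150) and Furin with -1.06 (adjusted p 0.00426). Over both clones 0 of 32 were called.

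**Figure D5:**
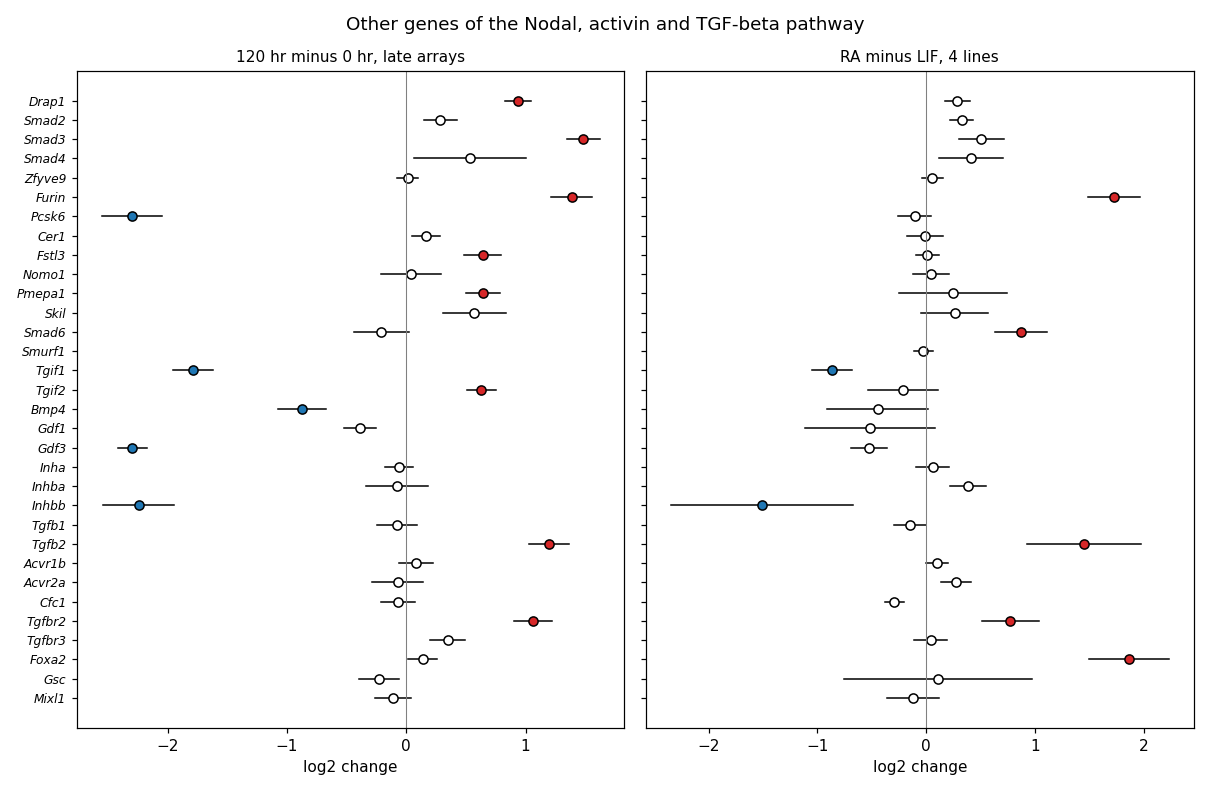
Change (points, log2 scale, with 95% intervals) of the other pathway genes, listed by role, at 120 hr on the late arrays (left) and with RA against LIF over the 4 lines (right); filled points passed the call (blue lower, red higher), and Smurf1 was not measured on the late arrays. Inhbb and Tgif1 lay among the lower and Furin, Tgfb2 and Tgfbr2 among the higher genes in both panels.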

How the data were processed

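RNA of mouse ES cells was hybridized to 40 Agilent 2-color 60-mer arrays, with the sample in Cy3 and the reference in Cy5. Per the file headers, signals were extracted with Feature Extraction 7.5.1. The deposited intensity values are mean spot signals and local backgrounds of each channel, and the deposited processed intensity values are background subtracted and dye normalized. The authors' tables hold normalized log10 values, whose scale follows Cy3 level, and served as an alternative. In 1 deposited column, recorded as a score because a code stands for missing values, 10 cells were set to missing.

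From the scanner intensities, background was corrected with normexp (offset 50), dyes were balanced by loess, and log2(Cy3/Cy5) was fitted with limma 3.58.1 in R 4.3.3, separately for each experiment. The offset lowers fold changes of dim probes. P-values were adjusted (Benjamini-Hochberg) over all gene probes. Time points were compared with 0 hr, transgenic with parental arrays within pairs of strain and medium, and media within lines. The change to 24 hr was compared between early and late arrays on 19163 probes of identical sequence. A gene is represented by its probe of highest mean intensity over both dyes. Intervals are 95%. The member genes, the pathway and marker lists and the tests were chosen with earlier results of these data known. A gene of the pathway lists is not reported here and was left out of their counts. Pathway genes named with values are at most 6 per experiment, those with the largest changes among the called. Replicate numbers were not used to pair the arrays in the main fit. Deviations of same-numbered arrays correlated with a mean r of 0.114 (early, from -0.136 to 0.337) and 0.151 (late, from -0.430 to 0.748). The script was tested on simulated data. The treatment label of the late arrays describes another construct. The 6 parental arrays also serve another series of the submitters.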

Additional observations from a re-analysis of the deposited data

Results flagged for a closer look

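Over 48 groups of 4 lines or 6 pairs tested for a sample far from the others, 2 were found, where chance gives about 1 in 20. The change of Lefty2 without LIF was -0.30 in ES 129.3, against 0.43 or more in the other 3 lines. With RA, Tdgf1 by probe 3 stood at 0.55 in the integrated clone, against 0.03 or less in the other lines.

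Of 15 differences between effects that were tested, 5 had an adjusted p of at most 0.05 by limma. The share of all genes at this p alone was not computed. With at least 1.5-fold as well, 15.2% of all genes differed between late and early arrays and 0.823% between the clones. The transgenic minus parental difference of Nodal was 0.81 higher in the integrated clone than in the clone labelled episomal (adjusted p 0.0391), where clone, strain and transgene cannot be told apart. The call was lost with Cy3 alone (0.72, adjusted p 0.170) and with the authors' values (0.92, adjusted p 0.0591). The change from 0 to 24 hr was lower on the late than on the early arrays, with differences for Lefty1 of -1.29 (adjusted p 4.41e-06), for Acvr2b of -0.65 (adjusted p 0.000175), for Smad7 of -0.54 (adjusted p 0.0329) and for Foxh1 of -0.51 (adjusted p 0.00809). With Cy3 alone the differences of Acvr2b (-0.16) and Foxh1 (-0.11) were not called. With the authors' values that of Lefty1 was called (-0.90, adjusted p 0.00544). Those of Acvr2b (-0.20, adjusted p 0.436), Foxh1 (-0.18, adjusted p 0.335) and Smad7 (-0.46, adjusted p 0.0764) were not.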

How the results depend on the processing

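Counts of called genes stayed within 1.5 times in 99 recomputations and moved further in 18. Except without replicate 1 at 24 hr early, the share of all genes called was not computed for these settings. A shift in these counts is therefore not set against one in all genes. With RA, 2 genes (Tdgf1 and Smad7) were called under normexp without an offset, the processed signals, the correction of Cy5 bleaching, the authors' table and the mean over probes. The larger of probe and neighbour variance gave 0 genes on the early arrays, without LIF and with RA. Cy3 alone gave 5 on the late arrays (Nodal and Fst added). Leaving out dim probes gave 1 (Acvr2b) for the 24 hr difference. The late Lefty1 probe, above the floor on 8 of 18 arrays, was itself left out there and so was not tested. Additive terms for line and medium gave 2 (Lefty2 and Fst) for the transgenes, and the parental lines only gave 0 without LIF. Leaving out 1 array, line or pair at a time gave 2 to 4 genes on the early arrays, 0 to 1 without LIF and 0 to 2 with RA. Leaving out an array could leave 1 array at a time point, which was then assumed to vary like the others.

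With the replicate number as a block, the early arrays gave 2 called genes and the late arrays 3, and the block changed no call at 24 hr early or 120 hr late.

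Of the single changes, 679 kept direction and call, 22 passed the call newly, 13 lost it and 32, all of uncalled values, turned direction. Nodal at 24 hr early was 0.26 without an offset and 0.21 with processed signals. Fst was 0.018 (bleaching), 0.038 (Cy3 alone) and 0.11 (mean over probes) at 24 hr early, and 0.011 (bleaching), 0.42 (Cy3 alone) and 0.096 (authors' table) at 120 hr late. Acvr2b at 24 hr early was -0.014 with Cy3 alone. With RA, Acvr2b was 0.0072 (processed signals), 0.010 (median centring) and 0.0071 (authors' table), Lefty2 was 0.0059 (median centring) and 0.16 (Cy3 alone), and Lefty1 was -0.65 in the parental lines only. Without LIF, Tdgf1 was 0.037 (median centring), 0.079 (Cy3 alone), 0.0086 (mean over probes) and 0.076 (parental lines only). Foxh1 between transgenic and parental lines was -0.077 (median centring) and -0.070 (Cy3 alone).

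Leaving out 1 array, line or pair, Fst at 120 hr late ran from -0.094 to 0.045, Smad7 between transgenic and parental lines from -0.17 to 0.019, and Tdgf1 without LIF from -0.098 to 0.039. With RA, Lefty1 ran from -0.19 to 0.47, Acvr2b from -0.095 to 0.052, Lefty2 from -0.18 to 0.0048 and Foxh1 from -0.029 to 0.045. The causes were not tested.

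Scan date as a block was not run, since it did not vary within the early or the late arrays and followed strain in the Nanog experiment. Signals near the negative controls limit the falls of Lefty1 and Tdgf1 on the late arrays.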
